A study of Camellia sinensis with 9 samples.

Results

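The transcripts described here are 105 reference transcripts of the tea plant, Camellia sinensis, that were nearly confined to leaf. They were chosen from 109879 assembled transcripts, of which 26178 match a reference model at a locus holding exactly 1 such match. A transcript was taken when its FPKM (its fragments corrected for its length and for sequencing depth) was at least 20 in each of 3 leaf libraries, and when its largest value in 3 flower and 3 root libraries was at most 10% of its leaf mean. Those values made the choice, so leaf against flower and leaf against root are given below as a description, with no test. Of 1361 transcripts that reached an FPKM of 20 in each leaf library, the 105 were 7.71%. The same rule turned to the other organs gave 344 transcripts nearly confined to flower and 162 nearly confined to root.

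The leaf, flower and root libraries are total RNA of untreated plants with ribosomal RNA removed. The labels give no cultivar, plant age, leaf position or flower stage, and nothing in them ties a replicate to a plant of its own. A p-value here thus reflects how far libraries of 1 organ differ, and that spread may be technical. The libraries are called leaf1, leaf23, leaf41, flower1, flower2, flower45, root13, root23 and root33, after the table's columns. The name leaf23 matches no sample title, so that library entered as leaf with no replicate number. In each organ sample, fewer cells of a type and less RNA per cell cannot be told apart.

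A leaf is a photosynthetic organ. Its mesophyll cells carry chloroplasts, where light capture and carbon fixation take place, and its epidermis makes cuticle, stomata and hairs. In tea the young leaf is also where catechins, caffeine and other compounds gather. Petals and roots hold few green plastids, while sepals and young buds of a flower can be green. What the 105 encode is not known here. The table pairs no identifier with a name or function, and 0 of the 105 identifiers occurred in the RefSeq gene table of the species (assembly ASM5576180v1). No marker gene could be looked up either, so the organ labels were not checked against markers. Transcripts are named by their reference identifier, and positions refer to scaffolds whose names are not in the table. A span runs from start to end and includes introns.

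The 105 transcripts took 6.53%, 8.30% and 8.60% of all FPKM in leaf1, leaf23 and leaf41. In flower1, flower2 and flower45 they took 0.149%, 0.165% and 0.293%, and in root13, root23 and root33 0.0427%, 0.0308% and 0.0613%. Leaf means ran from 25.4 to 13560 FPKM with a median of 136, and 66 of the 105 had a leaf mean of 100 or more. The median of the flower means was 3.52 FPKM and that of the root means 1.51 FPKM. Every leaf value exceeded every flower and root value at 103 of the 105. At 57 transcripts all 6 flower and root values lay at least 20-fold below the leaf mean, and at 4 they lay at least 100-fold below. Depth bears on the low values: for a transcript of 1000 nt, a single fragment came to 0.0385 to 0.0435 FPKM in leaf, 0.0557 to 0.0707 in flower and 0.0561 to 0.0714 in root. Where 0 fragments were seen, the level could still be as high as 3 fragments, 0.115 to 0.214 FPKM by library, from counting error alone. These figures come from the value steps of unspliced transcripts. Fragment counts of the 105 were not recovered.

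**Figure D1:**
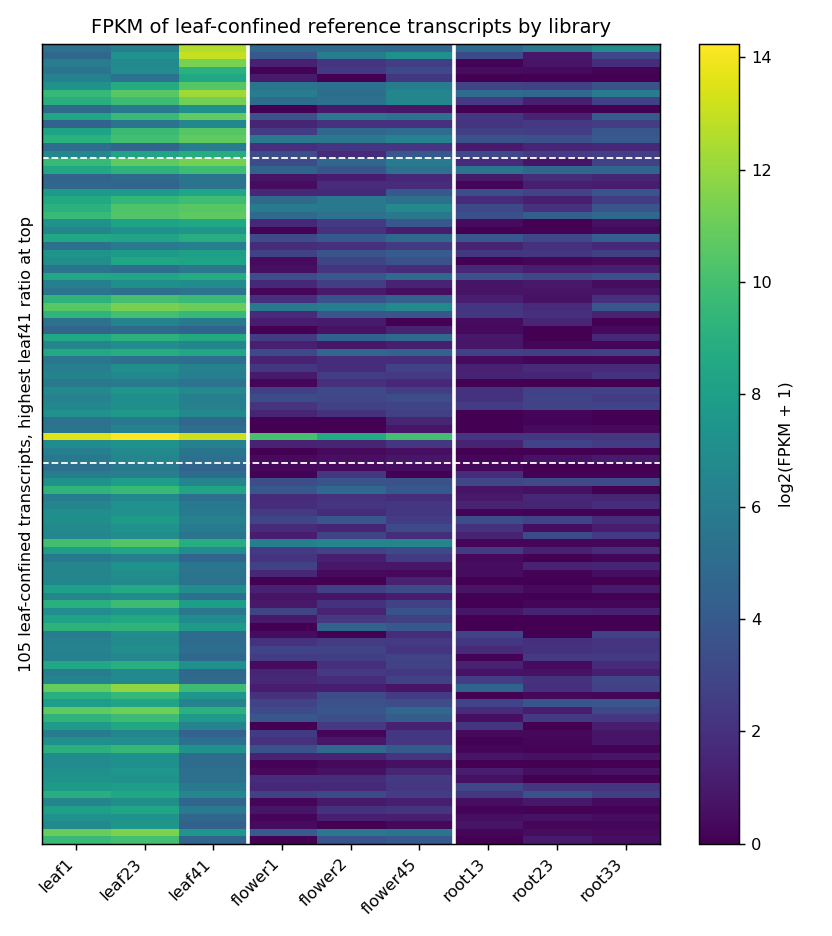
Each row is 1 of the 105 leaf-confined transcripts and each column a library, coloured by log2(FPKM + 1). Rows are ordered by the ratio of leaf41 to the mean of leaf1 and leaf23, and dashed lines mark a ratio of 2-fold above (15 rows on top) and 2-fold below (50 rows at the bottom). The flower columns are brighter than the root columns in most rows.

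The most abundant was CSA004763.1 (locus MSTRG.16967, plus strand, positions 247513 to 250275). It stood at 12292, 19322 and 9067 FPKM in leaf1, leaf23 and leaf41, at 1072, 414 and 1030 FPKM in flower1, flower2 and flower45, and at 3.84, 3.78 and 3.69 FPKM in root13, root23 and root33. It alone made up 30.2%, 30.4% and 14.6% of the FPKM of all 105 in leaf1, leaf23 and leaf41. Flower stood between leaf and root, with no overlap between any of the organs. It also made up 57.5%, 26.1% and 38.6% of their FPKM in flower1, flower2 and flower45. Without it the 105 took 4.56% to 7.35% of the FPKM in leaf libraries and 0.0633%, 0.122% and 0.180% in flower1, flower2 and flower45, against 0.0305% to 0.0609% in root. The share in flower1 was then close to that in root33.

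CSA006075.1 (MSTRG.1072, minus strand, positions 1635172 to 1636562) stood at 1505, 2592 and 2023 FPKM in leaf1, leaf23 and leaf41. Its flower values were 53.7, 65.5 and 102 FPKM in flower1, flower2 and flower45, and its root values 3.54, 2.26 and 13.2 FPKM in root13, root23 and root33. The organs were ordered leaf, flower, root in all libraries, as for the first transcript.

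CSA022661.1 (MSTRG.12205, plus strand, positions 35103 to 35615) stood at 764, 1728 and 2477 FPKM in leaf1, leaf23 and leaf41, at 8.72, 26.1 and 54.5 FPKM in flower1, flower2 and flower45, and at 2.41, 0.725 and 5.97 FPKM in root13, root23 and root33. CSA011403.1 (MSTRG.10902, plus strand, positions 129331 to 129720) stood at 1725, 2180 and 555 FPKM in leaf1, leaf23 and leaf41, at 9.03, 12.5 and 24.9 FPKM in flower1, flower2 and flower45, and at 2.54, 1.18 and 7.50 FPKM in root13, root23 and root33. Both span little, 513 and 390 nt. In each, the lowest flower library was above the highest root library.

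CSA000627.1 (MSTRG.22346, plus strand, positions 488416 to 491369) stood at 788, 1338 and 1667 FPKM in leaf1, leaf23 and leaf41, at 28.5, 39.6 and 50.1 FPKM in flower1, flower2 and flower45, and at 10.3, 19.1 and 26.0 FPKM in root13, root23 and root33. CSA010862.1 (MSTRG.46034, minus strand, positions 95575 to 98020) stood at 744, 1465 and 4663 FPKM in leaf1, leaf23 and leaf41, at 64.6, 33.8 and 93.2 FPKM in flower1, flower2 and flower45, and at 32.1, 27.5 and 62.5 FPKM in root13, root23 and root33. In the second, flower and root overlapped and leaf41 was the highest leaf library by a wide margin.

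**Figure D2:**
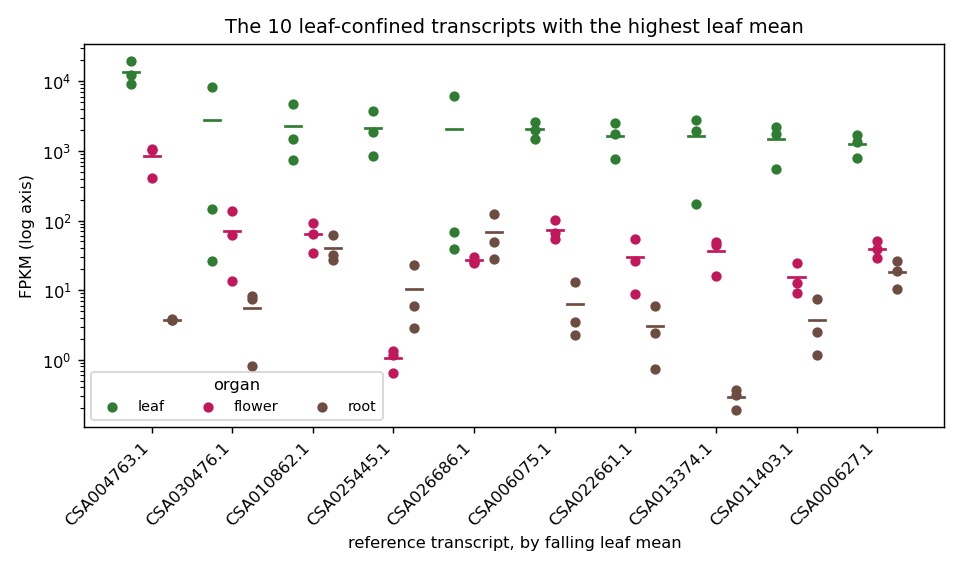
FPKM on a log axis of the 10 leaf-confined transcripts with the highest leaf mean, from CSA004763.1 on the left to CSA000627.1 on the right. Points are single libraries of leaf, flower and root, and short lines are the means of 3 libraries. Leaf points are tightly grouped at CSA006075.1 and spread over more than a decade at CSA030476.1, CSA026686.1 and CSA013374.1.

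The transcripts with the lowest values outside leaf, taken relative to the leaf mean, were CSA003060.1, CSA027427.1, CSA026889.1, CSA005116.1 and CSA008949.1, whose largest flower or root value was 0.551%, 0.567%, 0.648%, 0.658% and 1.03% of the leaf mean. CSA003060.1 is in this list through leaf41 alone, as its largest outside value of 5.27 FPKM was 6.15% of the mean of leaf1 and leaf23. CSA027427.1 (MSTRG.8422, minus strand, positions 484941 to 487177) stood at 115, 142 and 31.6 FPKM in leaf1, leaf23 and leaf41 and at 0.116, 0.291 and 0.546 FPKM in flower1, flower2 and flower45, and was listed at 0 in each root library. CSA026889.1 (MSTRG.25995, minus strand, positions 299009 to 299677) stood at 68.9, 107 and 45.7 FPKM in leaf1, leaf23 and leaf41, was listed at 0 in flower1 and in each root library, and stood at 0.306 and 0.478 FPKM in flower2 and flower45. These values outside leaf are near the depth limit given above. CSA008949.1 (MSTRG.23804, plus strand, positions 208117 to 213823) was lower in leaf, at 36.7, 53.9 and 22.1 FPKM in leaf1, leaf23 and leaf41, and no flower or root library exceeded 0.385 FPKM. In all, 39 of the 105 were under 1 FPKM in all 3 root libraries, 7 were under it in all 3 flower libraries and 6 were under it in all 6.

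At the edges of the rule, the transcripts just inside and just outside were close in value. CSA014013.1 and CSA018950.1, just inside the ceiling, had a largest flower or root value of 9.95% and 9.85% of the leaf mean. CSA005330.1 and CSA008917.1, just outside it, were at 10.0032% and 10.3%. The second of these is itself among the most abundant transcripts of leaf, with a leaf mean of 9061 FPKM, a largest value of 933 FPKM in flower45 and at most 23.7 FPKM in root. At the leaf minimum, CSA005116.1 and CSA014357.1 entered with a lowest leaf value of 20.6 and 20.9 FPKM, and CSA002499.1 and CSA005784.1 were left out at 19.96 and 19.7 FPKM. In all 4 cases that lowest value was the one in leaf41.

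The leaf libraries did not give the 105 alike. Across them, Pearson's r of log2(FPKM + 1) was 0.96 between leaf1 and leaf23, but 0.55 between leaf41 and leaf1 and 0.65 between leaf41 and leaf23. Over all 55806 transcripts with an FPKM of 1 in 3 or more libraries, the same pairs had 0.95, 0.76 and 0.77. Over those transcripts leaf41 also had a higher r with the root libraries, 0.57 to 0.64, than leaf1 and leaf23 had, 0.44 to 0.48. The part of this in the results on leaf41 below was not tested. Leaf41 was the lowest leaf library at 65 of the 105 and the highest at 30. The ratio of leaf41 to the mean of leaf1 and leaf23 had a median of 0.549, against 0.822 over the other 1256 transcripts at 20 FPKM or more in each leaf library. It was 2-fold or more below at 50 of the 105 (47.6%) and 2-fold or more above at 15 (14.3%), against 19.7% and 8.92% of the 1256. The highest leaf library exceeded the lowest at least 4-fold at 30 of the 105 (28.6%) and at 9.79% of the 1256. The same was true of 21.8% of the flower-confined transcripts in their own organ and of 10.5% of the root-confined ones. The rule takes the leaf mean, so a transcript very high in 1 leaf library can enter by that library. The minimum of 20 FPKM in each leaf library leaves transcripts low in leaf less room for a low leaf41 ratio or a wide spread. The leaf mean had a median of 59.7 FPKM over the 1256 and 136 over the 105. The shares above were not matched for it. With the leaf libraries scaled to a common median ratio, the median of leaf41 ratios became 0.639 for the 105 and 0.956 for the 1256.

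At one end stood 3 transcripts at least 8-fold higher in leaf41 than in the other leaf libraries. CSA026686.1 (MSTRG.36667, minus strand, positions 185861 to 186499) was at 6163 FPKM in leaf41, against 38.6 and 67.5 FPKM in leaf1 and leaf23. It stood at 25.8, 29.7 and 24.8 FPKM in flower1, flower2 and flower45 and at 28.5, 48.9 and 126 FPKM in root13, root23 and root33. Leaf1 and leaf23 thus lay within the range of the flower and root libraries.

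CSA030476.1 (MSTRG.51874, minus strand, positions 87485 to 88282) was at 8254 FPKM in leaf41, against 26.3 and 146 FPKM in leaf1 and leaf23. Its flower values were 13.6, 62.7 and 139 FPKM in flower1, flower2 and flower45, and its root values 8.27, 0.803 and 7.35 FPKM in root13, root23 and root33. Leaf1 again overlapped the flower libraries. CSA003060.1 (MSTRG.12971, minus strand, positions 533097 to 538536) was at 2698 FPKM in leaf41, against 65.6 and 106 FPKM in leaf1 and leaf23, and reached at most 5.27 FPKM in flower and 2.57 FPKM in root. It did not overlap them. Ratios of leaf41 to the mean of the other leaf libraries were 116, 95.8 and 31.5 for CSA026686.1, CSA030476.1 and CSA003060.1, so their leaf means rest on 1 library. CSA026686.1 and CSA030476.1 are the only 2 of the 105 whose leaf values overlap those of flower or root.

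At the other end, CSA026773.1 (MSTRG.23889, plus strand, positions 40322 to 40627) was at 24.1 FPKM in leaf41, against 778 and 1014 FPKM in leaf1 and leaf23. In flower1, flower2 and flower45 it stood at 0, 11.2 and 14.0 FPKM, and no root library exceeded 1.02 FPKM. CSA013374.1 (MSTRG.7644, plus strand, positions 701300 to 704603) was at 174 FPKM in leaf41, against 1963 and 2767 FPKM in leaf1 and leaf23. It stood at 16.1, 48.4 and 44.1 FPKM in flower1, flower2 and flower45 and at 0.191, 0.366 and 0.309 FPKM in root13, root23 and root33. CSA005116.1 (MSTRG.20456, plus strand, positions 19281 to 22785) was at 20.6 FPKM in leaf41, against 113 and 186 FPKM in leaf1 and leaf23, and reached 0.351 FPKM at most in flower and 0.699 FPKM in root. In these 3 all leaf libraries stayed above all others, though the margin of leaf41 over flower45 was less than 2-fold at CSA026773.1.

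**Figure D3:**
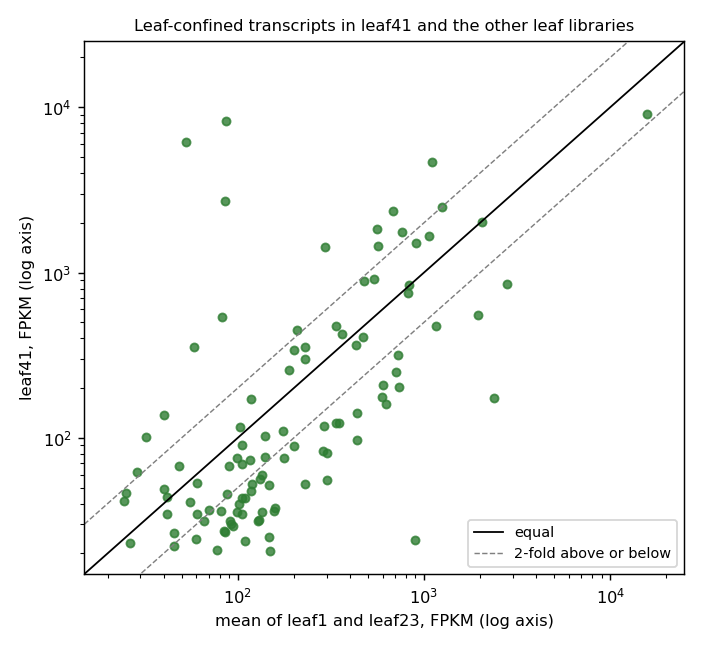
FPKM in leaf41 against the mean FPKM of leaf1 and leaf23, both on log axes, for the 105 leaf-confined transcripts. The solid line marks equal values and the dashed lines 2-fold above and below. Below the lower dashed line lie 50 transcripts and above the upper one 15, of which 3 stand far above the rest at the upper left.

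Split by leaf41, the transcripts had the following levels outside leaf. These are a description, since leaf41 enters the leaf mean and so raises the ceiling: 8 of the 15 transcripts at least 2-fold above would meet the rule without it. The 15 at least 2-fold above had medians of 20.3 FPKM for the flower mean and 5.48 FPKM for the root mean. For the 40 within 2-fold these medians were 4.71 and 1.89 FPKM, and for the 50 at least 2-fold below they were 3.33 and 0.723 FPKM. The median leaf mean was 857 FPKM for the 15, 123 for the 40 and 113 for the 50. In leaf1 and leaf23 alone the order was the other way, with median means of 86.1, 129 and 148 FPKM. Without leaf41 the rule would hold for 152 transcripts, of which 95 are among the 105. Of the 57 that would join, 48 were left out by a leaf41 value under 20 FPKM, and the 10 that would drop out had a leaf41 ratio of 1.67 or more.

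Flower and root were then compared with each other. The rule did not use the difference between these organs, since it set 1 ceiling for both. That ceiling did bound the flower and root values of the 105, and it was not applied to the transcripts set beside them. By their means, the traces of most leaf-confined transcripts were higher in flower, though most of these differences were not called in the test below. The flower mean exceeded the root mean at 87 of the 105 (82.9%), against 45.6% of the 1256 other transcripts at 20 FPKM or more in each leaf library. All 3 flower values lay above all 3 root values at 52 of the 105 (49.5%) and below them at 2 (1.90%). Over the 1256 these shares were 32.5% and 38.9%. At some of the 52 the order rests on values below 1 fragment, as at CSA009966.1 with 0.00429 FPKM in flower1 and 1.74e-05 FPKM in root13. Among the 76 of the 105 that entered the test below, the counts were 40 above and 2 below. The 76 include 13 that met its filter through flower alone. Over all 45557 transcripts tested, the shares were 30.5% and 31.8%. The largest value outside leaf was in flower45 at 55 of the 105, in flower2 at 28 and in flower1 at 6, and in a root library at 16.

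The test was limma on log2(FPKM + 1) over the 6 flower and root libraries, for transcripts reaching an FPKM of 1 in 3 or more of them. Calls needed a difference of at least 1 on that scale and an adjusted p (Benjamini-Hochberg, over all 45557 tested transcripts) under 0.05. Of the 105, 76 met that filter and 29 did not. Among the 76, 30 were called higher in flower, where 24.4% of all tested transcripts were, and 1 was called lower in flower, where 25.3% of all were. Of the 11927 tested transcripts that match a reference model, as the 105 do, 27.1% were called higher and 24.7% lower. The calls in either direction came to 31 of 76, against a background of 49.6%. For 13 of the 76 the filter was met through flower alone, with no root value at 1 FPKM, so those had to be higher in flower, and 12 of them are among the 30. Of the 63 that reached 1 FPKM in both organs, 18 (28.6%) were called higher and 1 lower in flower. Over all 34862 tested transcripts that did so, 17.4% were called higher and 19.2% lower. The median difference was 0.67 over the 63 and -0.07 over the 34862. With no filter, limma called 19 of the 105 higher (18.1%) and 0 lower, against 9.6% and 9.69% of all transcripts. Without root23 the calls were 19 higher and 2 lower of 76, against 21.4% and 21.6% of all tested transcripts. Without flower45 they were 20 and 1 of 76, against 23.1% and 23.2%. In both refits the share called higher came nearer to that of all transcripts than in the main fit.

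**Figure D4:**
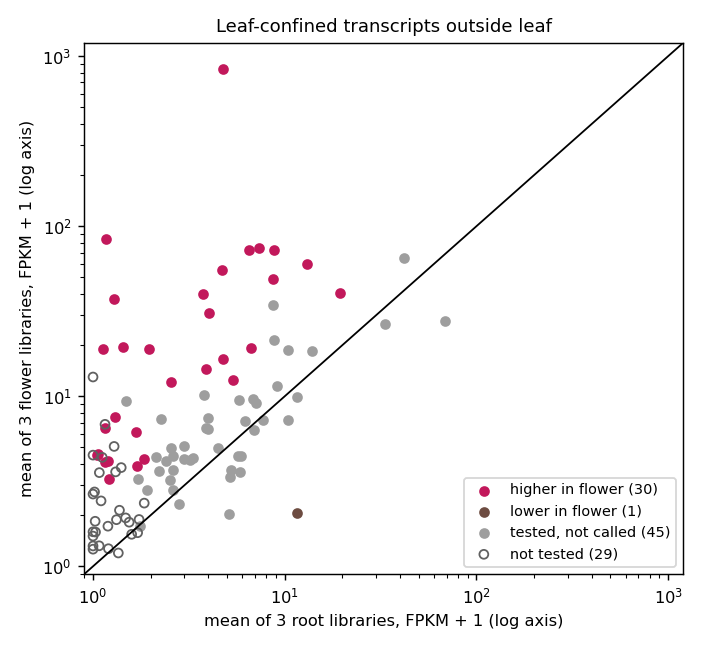
Mean FPKM + 1 of 3 flower libraries against that of 3 root libraries, both on log axes, for the 105 leaf-confined transcripts, with equal values on the line. Filled colours mark the 30 called higher and the 1 called lower in flower, grey the 45 tested and not called, and open circles the 29 not tested. Most points lie above the line, CSA004763.1 farthest up.

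The largest excess of flower over root was that of CSA004763.1, whose values are given above. It averaged 839 ± 368 FPKM in flower and 3.77 ± 0.0745 FPKM in root (SD, n = 3 each), a difference of 7.34 ± 0.39 (SE, limma adjusted p = 4.03e-05). CSA018950.1 (MSTRG.7212, plus strand, positions 444030 to 447753) followed. It stood at 70.3, 91.9 and 87.5 FPKM in flower1, flower2 and flower45, against 0.159, 0.162 and 0.205 FPKM in root13, root23 and root33, a difference of 6.15 ± 0.24 (SE). In leaf1, leaf23 and leaf41 it stood at 962, 1361 and 476 FPKM. The flower values are those of a moderately abundant transcript, while root is at the depth limit.

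CSA013374.1, already described for its low value in leaf41, averaged 36.2 ± 17.5 FPKM in flower and 0.289 ± 0.0891 FPKM in root (SD, n = 3 each), a difference of 4.71 ± 0.45 (SE). CSA034492.1 (MSTRG.25784, minus strand, positions 116240 to 120401) stood at 10.4, 28.4 and 15.1 FPKM in flower1, flower2 and flower45, against 0.153, 0.117 and 0.0987 FPKM in root13, root23 and root33, a difference of 3.96 ± 0.40 (SE). In leaf1, leaf23 and leaf41 it stood at 524, 721 and 159 FPKM. CSA018950.1, CSA013374.1 and CSA034492.1 are among the 13 that met the filter through flower alone, so that filter fixed their direction. With no filter their adjusted p (limma) was 0.000239, 0.00300 and 0.00297, in that order. Of the 30 called higher in flower, 11 exceeded root at least 8-fold on the log2(FPKM + 1) scale, 7 of them among the 63. The share of all tested transcripts called at 8-fold was not computed, so these counts have no background beside them.

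CSA025445.1 (MSTRG.22912, minus strand, positions 277040 to 278230) was the 1 called lower in flower. It stood at 1.17, 1.32 and 0.653 FPKM in flower1, flower2 and flower45, against 22.9, 2.84 and 5.92 FPKM in root13, root23 and root33. The groups did not overlap, and the difference was -2.08 ± 0.66 (SE, limma adjusted p = 0.0322). In leaf1, leaf23 and leaf41 it stood at 1855, 3692 and 854 FPKM. The call did not hold without flower1 (adjusted p = 0.0786, limma), flower2 (0.0572), flower45 (0.0956) or root33 (0.0681). It was also lost with a pseudocount of 5 (adjusted p = 0.0639, limma) and with no filter (0.105). Over 17 alternatives its adjusted p (limma) ran from 0.0171 to 0.105.

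The flower libraries differed among themselves in these traces. Flower45 was the highest flower library at 63 of the 105, and flower1 the lowest at 70. The median value was 1.35% of the leaf mean in flower1, 2.30% in flower2 and 3.74% in flower45, against 0.644% in root13, 0.382% in root23 and 0.705% in root33. The ratio of flower45 to flower1, each plus 1 FPKM, had a median of 1.70 over the 105 and 0.879 over the 1256 other transcripts.

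Some loci gave other transcripts beside the leaf-confined one. The table lists 47 further transcripts at 34 of the 105 loci (32.4%, against 37.7% of the loci of the 1256), of which 38 share a splice junction with the reference model. These were not part of the rule, but isoform estimates at a locus share reads, so they are described and not tested. Of the 43 with a leaf mean of at least 1 FPKM, 25 were also at or under 10% of their leaf mean in every flower and root library, and 1 had a flower or root value above its leaf mean. Summed over all transcripts of the locus, 30 of the 34 loci stayed within the ceiling.

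At 3 loci the other transcripts exceeded the reference transcript most in leaf. At the locus of CSA027513.1 (MSTRG.52973, minus strand, positions 46718 to 48199) they summed to 173, 350 and 161 FPKM in leaf1, leaf23 and leaf41, where CSA027513.1 itself had 39.4, 82.2 and 53.3 FPKM. At the locus of CSA005866.1 (MSTRG.21155, plus strand, positions 38299 to 44880) they summed to 156, 224 and 61.2 FPKM, where the reference transcript had 52.4, 67.2 and 24.3 FPKM. At the locus of CSA003658.1 (MSTRG.591, plus strand, positions 2074260 to 2077197) they summed to 1496, 2529 and 1184 FPKM, where the reference transcript had 643, 1006 and 756 FPKM. In flower libraries these sums reached 8.23, 12.4 and 29.9 FPKM at most and in root libraries 2.03, 1.25 and 1.13 FPKM, for the loci of CSA027513.1, CSA005866.1 and CSA003658.1 in that order. All 3 loci were thus low outside leaf as a whole.

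At a few other loci, chosen after their values were seen, a single transcript differed in pattern from the leaf-confined one. Of those described next, only the locus of CSA016824.1 exceeded the ceiling as a whole. At the locus of CSA016824.1 (MSTRG.34697, plus strand, positions 140914 to 142778), a splice variant that starts upstream at position 135981 and ends at 142705 stood at 13.5, 14.0 and 20.8 FPKM in leaf1, leaf23 and leaf41, at 28.5, 23.3 and 17.1 FPKM in flower1, flower2 and flower45, and at 26.2, 30.8 and 26.7 FPKM in root13, root23 and root33. The shorter reference transcript stood at 53.8, 86.8 and 36.4 FPKM in leaf1, leaf23 and leaf41. It made up 79.9%, 86.1% and 63.6% of the locus in leaf1, leaf23 and leaf41, against 1.08%, 2.18% and 4.46% in flower1, flower2 and flower45 and 0.472%, 2.04% and 3.62% in root13, root23 and root33. The locus as a whole was thus detected in all 9 libraries, and the estimate for the shorter transcript alone met the rule.

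At the locus of CSA009966.1 (MSTRG.16616, plus strand, positions 147149 to 151406), the variant MSTRG.16616.2 (positions 140974 to 151406) stood at 9.34, 3.66 and 6.32 FPKM in flower1, flower2 and flower45 and at no more than 0.465 FPKM in leaf. The other variant there, MSTRG.16616.1, averaged 451 FPKM in leaf and reached at most 25.9 FPKM in flower or root. CSA009966.1 stood at 579, 621 and 208 FPKM in leaf1, leaf23 and leaf41, at 0.00429, 22.3 and 13.6 FPKM in flower1, flower2 and flower45, and under 0.01 FPKM in each root library. The flower1 value near 0 stands beside 16.5 FPKM for the other transcripts of that locus in the same library, against 29.5 in flower2 and 28.1 in flower45. At the locus of CSA030476.1, an overlapping transcript (MSTRG.51874.1, positions 87485 to 91007) was at 0.989 FPKM in leaf41, against 51.6 and 111 FPKM in leaf1 and leaf23, where the reference transcript was at 8254, against 26.3 and 146 FPKM.

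**Figure D5:**
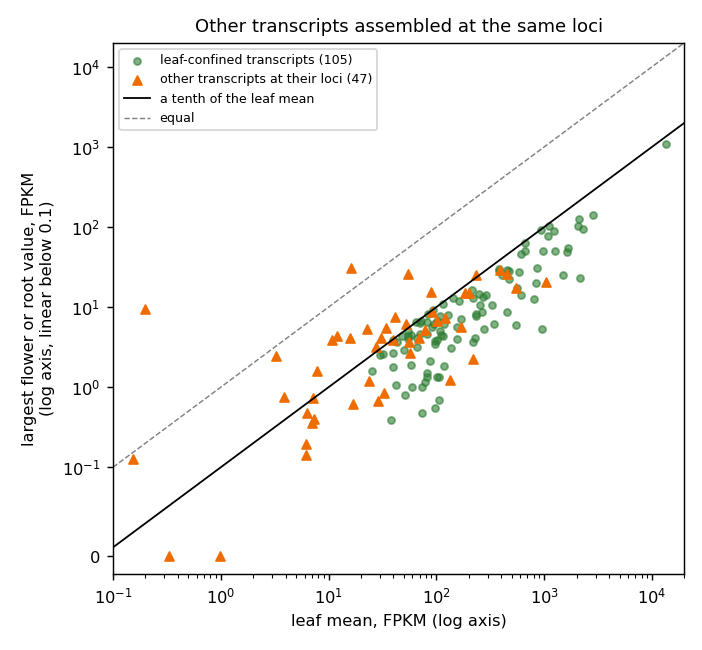
Largest flower or root FPKM against the leaf mean FPKM, on log axes (linear below 0.1 on the vertical one), for the 105 leaf-confined transcripts (circles) and the 47 other transcripts at their loci (triangles). The solid line is 10% of the leaf mean, under which the circles lie by the rule, and the dashed line marks equal values. Most triangles lie near or under the solid line.

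The 105 spanned 216 to 19537 nt with a median of 2327 nt, against 3606 nt for the 1256 others. Of the 105, 31 spanned under 1000 nt: 13 under 500 nt (12.4%, against 8.84% of the 1256) and 18 from 500 nt (17.1%, against 7.80%). FPKM of very short transcripts rests on a short effective length. On the plus strand lay 60 and on the minus strand 45.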

How the data were processed

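RNA of 3 leaf, 3 flower and 3 root samples was measured. The authors deposited 1 table of FPKM per assembled transcript. HISAT2, StringTie and Cuffnorm were used, per the submitters' processing notes. The sources used here do not give their versions or settings, the use of strand or the genome build. FPKM can move with the scaling of each library and with how reads are divided between isoforms. Of the 9 columns, 8 carry a sample title, and leaf23 was matched by organ alone. At most 0.00117% of values above 0 were identical in a pair of libraries, so none was counted as deposited more than once.

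Members, ratios and sums were computed from the FPKM with pandas 2.3.3. Flower minus root was tested with limma 3.58.1 (R 4.3.3), two-sided, on log2(FPKM + 1), a scale that understates changes of low transcripts. The fit had a variance trend, 4 residual degrees of freedom and Benjamini-Hochberg adjustment over 45557 transcripts. Leaf libraries were left out of it, since the members were chosen by their leaf values. The script was tested on simulated data. The alternatives were 17 for the test and 16 for the rule, among them other pseudocounts, filters, scalings, thresholds, locus sums and each library left out. Members were named by rule: the 10 highest leaf means, the 5 lowest outside leaf, the 3 highest and 3 lowest leaf41 ratios, up to 4 called flower and root differences in each direction, threshold neighbours, and the 3 with most other transcripts in leaf. Members, rules and tests were chosen with earlier results of these data known. No pathway or marker list was used. What 1 fragment is worth was read from unspliced intergenic transcripts of 600 to 3000 nt, where 100% of values from 1.5 to 10 fragments lay within 0.05 of a whole number. No sequence is shown, as no file used here holds one.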

Additional observations from a re-analysis of the deposited data

How the results depend on the processing

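The number of leaf-confined transcripts followed the thresholds by construction: 60 with a leaf minimum of 50 FPKM, 173 with the ceiling doubled and 57 with it halved. It ran from 98 to 152 with a library left out. With libraries scaled to equal sums it was 142, including all 105. The median leaf41 ratio was 0.639 with median-ratio scaling and 0.695 with the minimum of 50 FPKM. With that minimum the ratio of the other transcripts was not computed. Calls of flower against root were 19, with 19 higher and 0 lower, under a pseudocount of 5, which shrinks differences between low values, and again without a filter, where 101517 transcripts were tested. Of all transcripts, 14.3% were called higher and 13.1% lower under that pseudocount, and 9.6% and 9.69% without a filter. Locus sums gave 34 higher and 2 lower of 82, against 25.4% and 26.3% of all 31043 loci tested. With a library left out, calls ran from 21 to 34 of 76, those higher from 19 to 34 and those lower from 0 to 2. Over all transcripts, 21.4% to 25.6% were then called higher and 21.6% to 25.8% lower. Equal sums gave 22 higher and 1 lower of 74, against 22.97% and 26.85% of all 44153 transcripts tested. Quantile normalization gave 26 and 1 of 76, against 22.55% and 26.63% of all 45557 tested. Counting only transcripts that reached 1 FPKM in both organs, a choice made after seeing the data, left 19 calls, 18 higher and 1 lower of 63. Of all such transcripts, 17.4% were called higher and 19.2% lower. Of 82 differences of named transcripts under the alternatives, 76 kept direction and call, 0 reversed, and the 6 lost were all those of CSA025445.1. These transcripts were picked for their large called differences in the same data. The main filter also fixed the direction of CSA018950.1, CSA013374.1 and CSA034492.1. The count of 76 is thus a description and no independent support. No paired analysis was possible because flower and root columns carry different numbers. The 29 untested transcripts were left out by the filter of 1 FPKM in 3 of 6 libraries, and the part of depth in this was not tested. Their largest flower or root value reached 22.3 FPKM (CSA009966.1).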

Other observations

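Among the 105 leaf-confined transcripts, 2 pairs had consecutive locus numbers. CSA036933.1 (MSTRG.16756, positions 348848 to 349240) and CSA036932.1 (MSTRG.16757, positions 303017 to 304153), both on the plus strand and also consecutive in reference number, had similar levels in most libraries and were farthest apart in root33. CSA036933.1 stood at 376, 348 and 426 FPKM in leaf1, leaf23 and leaf41, at 9.84, 14.8 and 28.1 FPKM in flower1, flower2 and flower45, and at 10.5, 7.45 and 10.2 FPKM in root13, root23 and root33. CSA036932.1 stood at 353, 323 and 474 FPKM in leaf1, leaf23 and leaf41, at 8.37, 14.4 and 29.9 FPKM in flower1, flower2 and flower45, and at 13.4, 7.37 and 18.0 FPKM in root13, root23 and root33. CSA017652.1 (MSTRG.33656, plus strand) and CSA017654.1 (MSTRG.33657, minus strand) were the other pair. CSA017652.1 stood at 160, 427 and 1423 FPKM in leaf1, leaf23 and leaf41, at 46.0, 35.8 and 62.7 FPKM in flower1, flower2 and flower45, and at 6.67, 5.98 and 10.4 FPKM in root13, root23 and root33. CSA017654.1 stood at 260, 346 and 55.5 FPKM in leaf1, leaf23 and leaf41, at 0.744, 3.27 and 3.65 FPKM in flower1, flower2 and flower45, and at 0.0809, 0.0688 and 0.0870 FPKM in root13, root23 and root33. The second was higher in leaf1 and lower in all libraries but that one.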
